A study of Mus musculus with 8 samples.

Results

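Mitochondria import nearly all of their proteins, and the proteins of the inner membrane carrier family move metabolites between the cytosol and the matrix. The transcripts of these genes were followed in RNA from exosomes, small vesicles shed by cells, and in RNA from the parent cells. The members were the probe sets whose single gene symbol was Timm, Tomm or Slc25a followed by a number, which gave 142 probe sets of 67 genes among the 45101 probe sets of the array. Of these, 49 probe sets of 23 genes belonged to the import machinery and 93 probe sets of 44 genes to the carriers, and the 2 sets are described separately.

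The TOM complex is the entry gate of the outer membrane: receptors such as Tomm20 and Tomm70a bind precursor proteins and pass them to the channel Tomm40. Precursors with a cleavable presequence then go to the TIM23 complex (Timm23, Timm17a, Timm17b, Timm50, Timm21) with its motor anchor Timm44. The small Timm proteins of the intermembrane space escort hydrophobic precursors to the TIM22 complex, which inserts the carriers into the inner membrane. The carriers exchange ADP for ATP, take up phosphate, and move organic acids, amino acids, cofactors and iron. Mast cells, like most nucleated cells, depend on these proteins for respiration and for the synthesis of haem and iron-sulphur clusters.

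The exosome group held 4 arrays of total RNA from vesicles of MC/9, a murine mast cell line, that were collected from the culture supernatant by centrifugation, passage through a 0.22 µm filter and pelleting. The cell group held 4 arrays of total RNA from MC/9 cells. Both groups came from 1 cell line with no treatment or genetic change named in the labels, and the culture medium held bovine serum and a supplement from rat T cells, both possible sources of RNA in the pellet. The labels name biological replicates and no separate cultures, so that p-values can reflect the spread of these samples alone, which may be technical. Signals are per amount of RNA, so that fewer vesicles with a transcript and fewer copies per vesicle cannot be told apart. Replicates 1 and 2 of each group were hybridised in batch 1 and replicates 3 and 4 in batch 2.

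The exosome arrays were dim, and the authors' scaling to a common mean raised their background. The detection floor of an array was the 95th percentile of 150 probe sets of gene families silent in most tissues, such as odorant receptors and beta-defensins. It averaged 282 ± 38.8 for exosomes and 13.2 ± 2.54 for cells (SD, n = 4 each). The 3′ to 5′ signal ratio of the Gapdh control probe sets was 3.37 ± 0.781 in exosomes and 0.960 ± 0.173 in cells (SD, n = 4 each), and that of the actin controls was 5.56 ± 3.53 in exosomes and 1.82 ± 0.467 in cells (SD, n = 4 each). These ratios moved with the group, and their part in the results below was not tested. Of 12 mast cell markers on the array, 10 exceeded the floor on all 4 cell arrays, 0 on 3 or more exosome arrays, and 7 on no exosome array, Kit, Hdc and Tpsb2 among them. Their summed signal was 1520 to 1988 in exosomes and 42875 to 47523 in cells. The 6 T cell markers on the array summed to 309 to 436 in exosomes and 21.2 to 38.9 in cells, all 6 below the floor on every exosome array, as were the 2 erythroid markers, with sums of 10.0 to 39.8 in exosomes and 1.80 to 15.5 in cells.

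On exosome arrays a larger share of the import probe sets than of the whole array was above the floor, while the share of the carriers was near that of the array. An exosome array had 8.25 ± 2.63 import probe sets above its floor, or 16.8% ± 5.37, against 43.5 ± 1.29, or 88.8% ± 2.63, on a cell array (SD, n = 4 each). For carriers the numbers were 5 ± 3.92, or 5.38% ± 4.21, on exosome arrays and 65.75 ± 3.10, or 70.7% ± 3.33, on cell arrays. Over all probe sets the shares were 6.10% ± 2.12 in exosomes and 47.5% ± 2.13 in cells, so that the carriers' exosome share lay within the spread of that of the whole array. The share of import probe sets exceeded that of all probe sets on each of the 4 exosome arrays, a comparison made without a test. This background is not matched, since import probe sets exceeded the floor more often in cells too (88.8% against 47.5%). Of probe sets measured on every cell array, 81.6% exceeded no exosome floor. The counts were 26 of 41 for import and 46 of 56 for carriers. Tomm20 has 6 probe sets, and 1423079_a_at, 1423080_at and 1455357_x_at counted on each exosome array. The import share without Tomm20 was not computed.

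**Figure D1:**
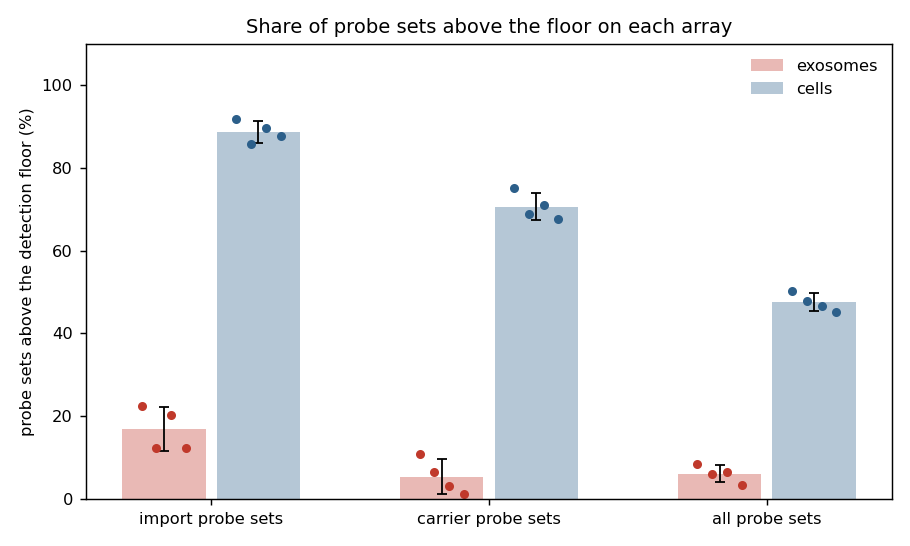
Share of probe sets above the detection floor (y axis, percent) on each array for import probe sets, carrier probe sets and all probe sets (x axis). Points are arrays, exosomes left of cells, and bars are the means, with SD as error bars. The import share lay between 12.2% and 22.4% on the exosome arrays, and the carrier share between 1.08% and 10.8%.

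Only 5 of 49 import probe sets (10.2%) and 2 of 93 carrier probe sets (2.15%) were above the floor on at least 3 exosome arrays, against 2.64% of all probe sets. The 5 import probe sets were 3 of the 6 for Tomm20, the single probe set of Timm23 and 1 of 3 for Timm50. The 2 carrier probe sets measured the phosphate carrier Slc25a3 and the ADP/ATP carrier Slc25a5. On all 4 exosome arrays, 4 import probe sets (3 of Tomm20 and that of Timm23) and 0 carrier probe sets were above the floor. With the floor at the 99th percentile, the Timm23 probe set alone was above it on at least 3 exosome arrays among import probe sets, and 0 carrier probe sets were. Conversely, 33 import probe sets (67.3%) and 80 carrier probe sets (86%) were above it on no exosome array, against 85.7% of all probe sets.

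Each of these 5 genes has a probe set above the floor on at least 3 exosome arrays. For that reason the sequences upstream of their start sites are shown. They are the 250 bases before the RefSeq start on build GRCm38.p6, written 5′ to 3′ along the gene. Capitals mark, on either strand, CCGGAAG, the core of sites for ETS factors, GGGCGG, the core of sites for Sp1, and CACGTG, which is bound by several basic helix-loop-helix factors.
Tomm20, chr8:126945922-126946171, minus strand: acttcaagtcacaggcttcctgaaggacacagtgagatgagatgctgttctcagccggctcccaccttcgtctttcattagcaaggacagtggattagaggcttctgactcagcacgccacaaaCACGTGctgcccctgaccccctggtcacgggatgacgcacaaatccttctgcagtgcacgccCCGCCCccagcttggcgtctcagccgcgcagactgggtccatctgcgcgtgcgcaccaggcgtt
Timm23, chr14:32201892-32202141, minus strand: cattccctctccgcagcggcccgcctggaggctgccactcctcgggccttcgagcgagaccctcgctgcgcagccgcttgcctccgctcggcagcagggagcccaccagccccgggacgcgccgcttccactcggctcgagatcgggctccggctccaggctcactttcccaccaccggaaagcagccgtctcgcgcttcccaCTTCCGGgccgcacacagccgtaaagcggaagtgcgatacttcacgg
Timm50, chr7:28312047-28312296, minus strand: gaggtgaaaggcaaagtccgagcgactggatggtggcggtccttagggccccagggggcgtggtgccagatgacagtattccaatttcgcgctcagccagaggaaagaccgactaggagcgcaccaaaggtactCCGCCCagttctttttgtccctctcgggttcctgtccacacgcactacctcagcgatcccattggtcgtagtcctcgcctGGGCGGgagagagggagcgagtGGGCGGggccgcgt
Slc25a5, chrX:36795347-36795596, plus strand: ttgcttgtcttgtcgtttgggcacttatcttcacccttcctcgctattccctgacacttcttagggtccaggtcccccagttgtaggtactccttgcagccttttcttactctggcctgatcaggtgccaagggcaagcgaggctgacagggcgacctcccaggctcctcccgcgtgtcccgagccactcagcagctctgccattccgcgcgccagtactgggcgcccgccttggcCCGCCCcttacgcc
Slc25a3, chr10:91123968-91124217, minus strand: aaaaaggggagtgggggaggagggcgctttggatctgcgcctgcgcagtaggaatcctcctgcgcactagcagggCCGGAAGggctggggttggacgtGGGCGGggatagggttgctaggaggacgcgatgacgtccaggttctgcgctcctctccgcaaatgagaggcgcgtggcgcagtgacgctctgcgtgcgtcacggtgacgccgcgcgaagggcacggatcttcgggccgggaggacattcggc

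These windows differed among themselves. Slc25a3 and Timm23 each held 1 CCGGAAG, Timm50 held 3 GGGCGG, Slc25a5 and Slc25a3 held 1 GGGCGG each, and Tomm20 held 1 CACGTG and 1 GGGCGG. RefSeq windows were matched for 54 of the 67 genes, 20 import genes with 22 windows and 34 carriers with 43. CCGGAAG or its complement stood in 9 of 22 import windows (40.9%) and in 6 of 43 carrier windows (14.0%), against 15.3% of windows of genes measured on every cell array and 6.91% of all windows. GGGCGG stood in 45.5% of import and 74.4% of carrier windows, against 59.5% and 32.7% in those 2 comparison sets. CACGTG stood in 18.2% of import and 18.6% of carrier windows, against 8.53% and 6.02%. Of the other 3 sequences searched on both strands, AAGATGGC stood in 0 import and 0 carrier windows, against 2.2% and 1.56% in the same comparison sets. The letters GCGCATG stood in 4.55% of import and 4.65% of carrier windows, against 6.25% and 3.24%, and TATAAA in 4.55% of import and 2.33% of carrier windows, against 5.82% and 12.4%. The 6 sequences were settled on after shares in these windows had been seen, no test was made, and a match is a description of letters only.

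Each tested probe set was compared between exosomes and cells with limma on log2(signal + 4), with Benjamini-Hochberg adjustment over all 20219 tested probe sets and a threshold of 0.05. Only probe sets above the floor on 3 or more arrays of either group entered the test. Most members passed through the cell arrays alone, 39 of 44 tested import probe sets and 63 of 65 tested carrier probe sets. So did 19030 of all 20219 tested probe sets. The filter itself thus favoured probe sets that were high in cells, among the members and over the whole array, and the counts below are a description. Of all tested probe sets 37.5% were called lower in exosomes and 17.9% higher, with a median log2 difference of -0.69.

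Of the 44 import probe sets tested, 26 were lower in exosomes (59.1%), 4 were higher (9.09%) and 14 were not called, with a median of -1.58. With the probe set of the highest mean standing for each gene, 13 of 21 import genes were lower, 2 were higher and 6 were not called. Of the 65 carrier probe sets tested, 31 were lower (47.7%), 9 were higher (13.8%) and 25 were not called, with a median of -1.36. Of 35 carrier genes, 14 were lower, 7 higher and 14 not called. With no filter, 26 of 49 import probe sets were lower and 9 higher, and 33 of 93 carrier probe sets were lower and 35 higher, against 18% lower and 59% higher of all 45037 probe sets. Counted by probe sets on the filtered table and the authors' scaling, the share of lower calls was above that of all tested probe sets in both sets. The share of higher calls was below it. Genes with several probe sets weigh more in such counts, as with the 8 of Slc25a5, all called lower. No share over all genes with 1 probe set each was computed, so the gene counts have no matching background.

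A lower call does not by itself give a ratio, since 19 of the 26 lower import probe sets and 26 of the 31 lower carrier probe sets exceeded the floor on no exosome array. For these a bound is given where the cell signal exceeded the exosome floor ("at least N-fold lower"), on the authors' scaling. It is the geometric mean of the cells over that of the higher of floor and signal on each exosome array. Such a bound was available for 14 import and 15 carrier probe sets. For the others the geometric mean of the cell signals did not exceed that of the exosome floors, although single cell arrays could.

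Within the TOM complex, Tomm20 was measured on every exosome array and fell in exosomes. Its probe set 1423079_a_at had signals of 539, 472, 789 and 734 on the exosome arrays, against 3510, 3417, 4820 and 5097 on the cell arrays. Every exosome array lay above its own floor and below every cell array, and the log2 difference was -2.73 (SE 0.27, limma adjusted p = 1.84e-05). Probe set 1423080_at, with 400, 330, 301 and 340 in exosomes and 2103, 2186, 2897 and 2918 in cells, differed by -2.86, and 1455357_x_at, with 337, 377, 615 and 803 in exosomes and 2758, 2839, 3194 and 3844 in cells, by -2.63. The remaining 3 Tomm20 probe sets were above the floor on at most 1 exosome array, and 1 of them was called lower (1435534_a_at, -1.76) while 1423081_a_at (-0.71) and 1435187_at (-0.22) were not called. After quantile normalisation 1423079_a_at (-0.65, limma adjusted p = 0.0791), 1455357_x_at (-0.66, limma adjusted p = 0.20) and 1435534_a_at (-0.47, limma adjusted p = 0.467) were not called, while 1423080_at was (-1.20, limma adjusted p = 0.00435). Tomm20 has processed pseudogene copies, and the suffixes _x_at and _s_at mark probe sets with probes that can match other transcripts, so these signals may not all come from the parent gene.

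The other TOM genes were mostly at background in exosomes. Tomm70a, the receptor that takes up carrier precursors, had 180, 184, 47.7 and 19.1 in exosomes against 441, 505, 766 and 885 in cells on probe set 1426676_s_at, at least 2.22-fold lower (log2 difference -2.97, SE 0.64, limma adjusted p = 0.00265). Tomm7, a small subunit that tunes the assembly of the complex, had 123, 59.5, 117 and 168 in exosomes against 723, 583, 988 and 943 in cells on 1428214_at, at least 2.82-fold lower (limma adjusted p = 0.000113). The groups did not overlap on either of these probe sets. Of the other Tomm7 probe sets, 1428215_x_at had 5.51, 26.3, 9.14 and 127 in exosomes against 709, 674, 889 and 1058 in cells, at least 2.92-fold lower (-4.95), 1434732_x_at was lower with overlapping groups and no bound (-2.29), and 1428216_s_at was not tested. Tomm70a was also lower on 1417192_at (-3.13) and 1426675_at (-4.52) and not called on 1434243_s_at (-0.61). Tomm40, the channel itself, was called lower (-2.43, SE 0.44, limma adjusted p = 0.000883), with 33.6, 37.3, 46.3 and 78.7 in exosomes and 336, 333, 332 and 137 in cells. No bound could be given for Tomm40, since its cell signal did not exceed the exosome floor as a geometric mean. The core receptor Tomm22 was lower on probe set 1429103_at (-1.07) and not called on 1434420_x_at (0.25). Tomm40l, a paralogue of Tomm40, was called higher on 1429382_at, with 248, 377, 157 and 227 in exosomes, 2 of them above the floor, and 66.0, 144, 80.2 and 93.8 in cells (1.35, SE 0.40, limma adjusted p = 0.0138), and its probe set 1455614_at was not called (-0.28). Of the 20 TOM probe sets, 18 were tested, 12 were lower, 1 was higher and 5 were not called. The cytosolic co-chaperone Tomm34 was not called (-1.09), with 332, 63.9, 437 and 88.8 in exosomes and 339, 298, 446 and 409 in cells.

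In the presequence translocase, Timm23 was measured on all 8 arrays and had the smallest of the called import falls. The channel subunit Timm23 had 619, 621, 801 and 720 in exosomes against 1246, 1219, 1444 and 1347 in cells, without overlap. The log2 difference was -0.93 (SE 0.24, limma adjusted p = 0.00643). It did not keep its direction under every scaling: after quantile normalisation it was 1.13 (limma adjusted p = 0.00564), and with the arrays scaled by 432 probe sets measured on every exosome and cell array it was -0.18 and not called (limma adjusted p = 0.587). Its channel partner Timm17a had 47.5, 73.8, 88.7 and 19.5 in exosomes against 418, 442, 675 and 610 in cells, at least 1.87-fold lower (-3.28, SE 0.46, limma adjusted p = 0.000162). Timm17b was lower on 1438656_x_at (-2.61, at least 1.56-fold) and not called on 1460685_at (-1.07), and Timm21 was not called (-1.05).

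Timm50, the receptor that receives presequences on the inner membrane side, had probe sets with opposite calls. Probe set 1459830_at had 419, 260, 447 and 441 in exosomes, 3 of them above the floor, against 43.2, 70.6, 40.4 and 56.3 in cells, a log2 difference of 2.80 (SE 0.36, limma adjusted p = 8.93e-05). Probe set 1455456_a_at had 34.9, 14.8, 9.59 and 5.58 in exosomes against 182, 159, 243 and 214 in cells, a difference of -3.52 (SE 0.50, limma adjusted p = 0.000182), with every exosome array below its floor. The pair thus gave opposite calls for the same gene, and the third probe set was not tested. The motor anchor Timm44 was also uneven, with 493, 434, 202 and 22.1 in exosomes and 359, 342, 457 and 399 in cells on 1448801_a_at (-1.08, not called). Its probe set 1439371_x_at was lower (-2.16, at least 1.20-fold) and 1417670_at was not called (-0.74). Of the 11 presequence translocase probe sets, 10 were tested, 5 were lower, 1 was higher and 4 were not called.

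**Figure D2:**
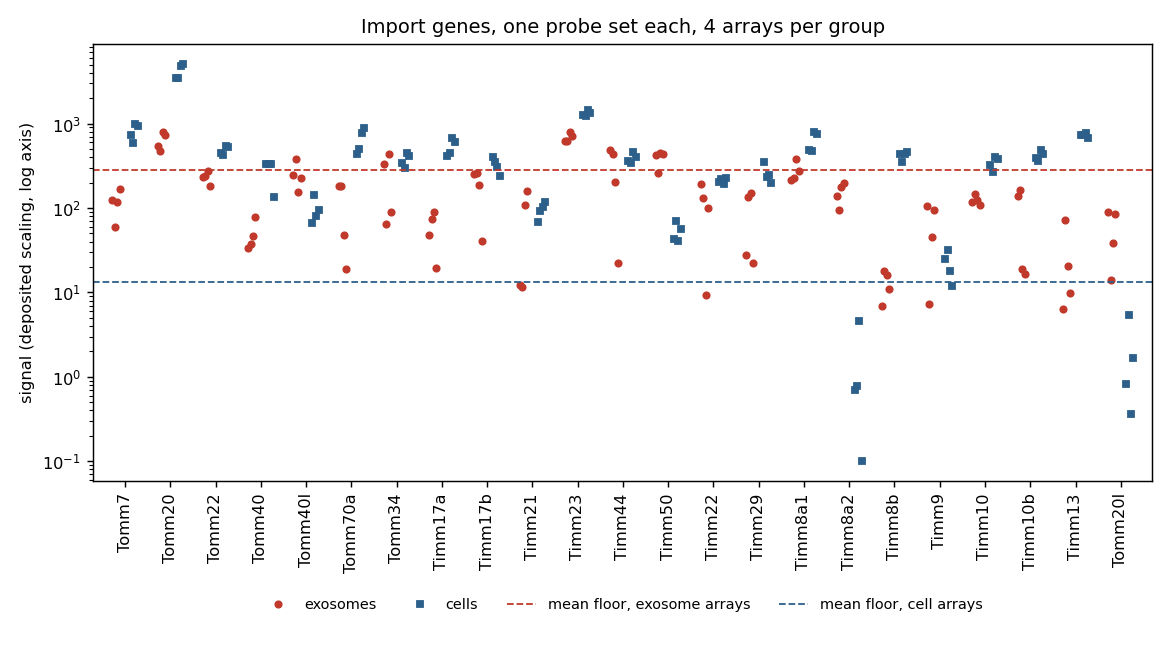
Signals of the 23 import genes (x axis), each by its probe set of the highest mean, on the 4 arrays of each group, on the authors' scaling (log y axis). Circles are exosome arrays, left of the squares for cell arrays, from replicate 1 to replicate 4, and dashed lines mark the mean detection floor of each group (282 and 13.2). All Tomm20 and Timm23 exosome signals and 3 of the 4 for Timm50 stand above the exosome line, while those of Timm8b (7.0 to 17.7) and Timm13 (6.31 to 71.2) lie far below it.

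Among the small intermembrane space chaperones, Timm10b, Timm13 and Timm8b were below the floor on every exosome array and, on each probe set called lower, above it on every cell array. Timm10b, a small subunit at the TIM22 complex, had 12.8, 9.12, 15.9 and 24.3 in exosomes against 838, 1008, 1202 and 1051 in cells on probe set 1417916_a_at, at least 3.62-fold lower (-5.76, SE 0.36, limma adjusted p = 1.61e-06). It was lower on 1436416_x_at (-2.87) and 1448887_x_at (-4.29) too, but 1453461_at, with 63.2, 14.2, 59.8 and 34.9 in exosomes and 25.2, 2.03, 14.1 and 15.5 in cells, was not called (1.40). Timm13 had 6.31, 71.2, 20.6 and 9.72 in exosomes against 738, 725, 776 and 683 in cells, at least 2.60-fold lower (-5.02, SE 0.57, limma adjusted p = 4.15e-05). Timm8b, which with Timm13 belongs to the family of hexameric escorts, had 7.0, 17.7, 16.2 and 11.1 in exosomes against 432, 348, 433 and 463 in cells, at least 1.49-fold lower (-4.68, SE 0.39, limma adjusted p = 6.25e-06). The exosome signals of these genes were far below the floor, so the bounds are much smaller than the fitted differences. Timm10, which pairs with Timm9, had 118, 147, 123 and 109 in exosomes against 320, 271, 407 and 377 in cells, at least 1.21-fold lower (-1.43, SE 0.30, limma adjusted p = 0.00231). Timm9 was lower on 1449886_a_at (-1.71) and not called on 1428010_at (1.02), which was called higher without exosome replicate 2 (1.73, limma adjusted p = 0.0133) with no exosome array above the floor. Timm8a1 was lower on 1416345_at (-1.18), with 213, 226, 385 and 275 in exosomes and 492, 474, 796 and 745 in cells, and not called on 1416346_at (0.02). Of the 12 probe sets of this group, 11 were tested, 8 were lower, 0 were higher and 3 were not called.

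The TIM22 genes did not show a common direction. Timm22, the channel of that complex, was not called on 1448517_at (-1.45) and was called higher on 1448518_at (3.23, SE 0.38, limma adjusted p = 5.11e-05), with 187, 156, 183 and 194 in exosomes and 16.2, 16.2, 12.4 and 17.6 in cells. All 4 exosome signals of 1448518_at were below the floor, so this call rests on values that the floor does not separate from background. Timm29, a further subunit, was lower on 1426746_at (-1.96, not called without cell replicate 1 at -1.80) and higher on 1452175_at (1.46). Of the 4 TIM22 probe sets, all tested, 1 was lower, 2 were higher and 1 was not called. Timm8a2 and Tomm20l had no tested probe set.

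Among the carriers, those for ADP/ATP and for phosphate held the probe sets above the floor on 3 exosome arrays, and both were far below the cells. Slc25a5, the main ADP/ATP carrier of proliferating cells, was lower on all 8 of its probe sets, with differences of -2.25 to -4.15. Probe set 1423772_x_at had 329, 356, 198 and 514 in exosomes against 2906, 2968, 3916 and 3900 in cells (-3.34, SE 0.32, limma adjusted p = 1.29e-05). Probe set 1430542_a_at, below the floor on all exosome arrays at 98.0, 247, 171 and 227, had 2912, 3064, 3610 and 3152 in cells and was at least 11.3-fold lower. The bound of 1434801_x_at was at least 11.2-fold, and these were the largest bounds among the members. Of the 13 probe sets for ADP/ATP carriers 11 were tested, and all 11 were lower. Slc25a5 has pseudogene copies, and 6 of its 8 probe sets carry the _x_at suffix. Slc25a4, the ADP/ATP carrier prominent in heart and muscle, was lower on its 3 tested probe sets, with bounds of 1.24, 1.09 and 1.11. On 1455069_x_at it had 196, 44.2, 113 and 186 in exosomes against 317, 300, 332 and 295 in cells (-1.38, SE 0.46, limma adjusted p = 0.0247), and the call was lost without cell replicate 1 or 3 (-1.37 and -1.35).

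Slc25a3, which brings phosphate into the matrix for ATP synthesis, had 673, 373, 317 and 286 in exosomes against 3570, 3462, 4295 and 3673 in cells. It was above the floor on 3 exosome arrays, with no overlap between the groups, and the difference was -3.25 (SE 0.30, limma adjusted p = 1.17e-05). Its second probe set was not tested. The ATP-Mg/phosphate carriers, which adjust the adenine nucleotide pool of the matrix, moved in both directions. Slc25a24 was at least 1.70-fold lower on 1452717_at (-2.65), with 48.9, 146, 18.9 and 185 in exosomes and 369, 428, 576 and 562 in cells. Slc25a25 was called higher (3.14, SE 0.57, limma adjusted p = 0.000839), with 395, 266, 67.4 and 289 in exosomes, 1 of them above the floor, and 16.3, 29.9, 24.8 and 14.7 in cells. That call was lost after quantile normalisation (2.12, limma adjusted p = 0.051) and after background subtraction (2.07, limma adjusted p = 0.19). Slc25a23 was not called (0.23). Of the 7 probe sets of this group 4 were tested, with 1 lower, 1 higher and 2 not called.

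Carriers of organic acids and the acylcarnitine carrier Slc25a20 were mostly at background in exosomes. Slc25a11, the oxoglutarate/malate carrier of the malate-aspartate shuttle, had 52.9, 143, 7.33 and 17.3 in exosomes against 911, 940, 797 and 619 in cells, at least 2.87-fold lower (-4.43, SE 0.68, limma adjusted p = 0.000305). Slc25a1, the citrate carrier, was called lower (-2.88, limma adjusted p = 0.00416), with 3.66, 38.8, 71.3 and 53.8 in exosomes and 311, 334, 239 and 158 in cells, and had no bound. Slc25a20, the carnitine/acylcarnitine carrier of fatty acid oxidation, was called lower (-2.27, limma adjusted p = 0.0348), with 152, 16.1, 175 and 9.33 in exosomes and 286, 162, 290 and 281 in cells. Its groups overlapped, it had no bound, and its call was lost in 5 of the 8 fits that left out an array, those without exosome replicate 2 or 4 or cell replicate 1, 3 or 4 (-2.21 to -1.61, limma adjusted p = 0.0735 to 0.0941). Slc25a29, grouped here with Slc25a20 by list alone, was called higher on 1438187_at (3.28, SE 0.45, limma adjusted p = 0.000143). It had 131, 320, 305 and 147 in exosomes, 2 of them above the floor, and 22.4, 20.4, 15.4 and 14.4 in cells. The 4 probe sets for organic acid carriers gave 2 lower and 2 uncalled results, with both probe sets of the dicarboxylate carrier Slc25a10 uncalled, and the 6 tested of 7 for Slc25a20 and Slc25a29 gave 2 lower, 2 higher and 2 uncalled results.

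Amino acid, cofactor and nucleotide carriers gave falls with bounds and rises that lay mostly below the floor. Slc25a12, the aspartate/glutamate carrier of the malate-aspartate shuttle, had 25.3, 9.80, 5.64 and 57.2 in exosomes against 466, 511, 453 and 423 in cells on 1428440_at, at least 1.65-fold lower (-4.40, SE 0.56, limma adjusted p = 8.51e-05). Its probe set 1444489_at was called higher (1.86) with no exosome array above the floor. Slc25a36, a pyrimidine nucleotide carrier, had 3.27, 18.5, 42.3 and 3.91 in exosomes against 514, 427, 499 and 564 in cells, at least 1.78-fold lower (-5.01, SE 0.59, limma adjusted p = 5.5e-05). Slc25a51, which supplies NAD+ to the matrix, was at least 1.61-fold lower on 1433816_at (-4.47). The glutamate carrier Slc25a22, the glycine carrier Slc25a38 and the coenzyme A carrier Slc25a42 were called higher by 1.84, 1.33 and 2.48, with 1, 0 and 0 exosome arrays above the floor. The Slc25a42 call was lost in 4 of the 8 fits that left out an array, those without exosome replicate 1, 2 or 3 or cell replicate 2 (1.93 to 2.25). The iron carriers Slc25a37 (-0.29), which feeds haem synthesis in erythroid cells, and Slc25a28 (-1.28) were not called. Of 13 amino acid carrier probe sets 8 were tested, with 1 lower, 3 higher and 4 not called, and of 17 for cofactors and nucleotides 12 were tested, with 4 lower, 1 higher and 7 not called.

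Of the carriers with other or less settled roles, probe sets 1439410_x_at and 1456176_x_at of Slc25a39 depended most on the batch. Slc25a39, linked to glutathione uptake by mitochondria, had 628 and 536 in batch 1 and 88.1 and 77.3 in batch 2 in exosomes on 1439410_x_at, against 2658 and 2570 in batch 1 and 2732 and 2743 in batch 2 in cells. The pooled difference was -3.57 (SE 0.64, limma adjusted p = 0.000802), and the difference within each batch was -2.16 in batch 1 and -4.99 in batch 2. Probe sets 1456176_x_at (-3.62) and 1447783_x_at (-2.12) were lower too, and 1453111_a_at was not called (-1.13, limma adjusted p = 0.131). The change from batch 1 to batch 2 was not called on 1447783_x_at (-2.64, limma adjusted p = 0.208) or 1453111_a_at (-0.66, limma adjusted p = 0.830). Slc25a46, an outer membrane protein of mitochondrial shape and lipid supply, was lower on both probe sets, at least 2.71-fold on 1418134_at (-4.29) with 72.7, 6.80, 94.8 and 24.5 in exosomes and 746, 826, 705 and 771 in cells. Slc25a53 was lower on 1453040_at (-1.51) and higher on 1459914_at (2.42), and Slc25a35 was called higher (1.61), all with no exosome array above the floor. The Slc25a35 call was lost in 5 of the 8 fits that left out an array, those without exosome replicate 1 or 4 or cell replicate 2, 3 or 4 (1.29 to 1.67). Of the 18 probe sets of this group 12 were tested, with 7 lower, 2 higher and 3 not called. Among the relatives of the uncoupling proteins, Slc25a30 was lower on 2 probe sets (-3.92 and -1.51) and not called on 2 others, Slc25a14 was not called (-1.36), and none of these was above the floor on an exosome array. No probe set was tested for 9 carrier genes: Slc25a2, Slc25a13, Slc25a18, Slc25a27, Slc25a31, Slc25a34, Slc25a41, Slc25a48 and Slc25a54. Of the 9 higher calls among carrier probe sets, 6 had no exosome array above the floor, as did 1 of the 4 among import probe sets.

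**Figure D3:**
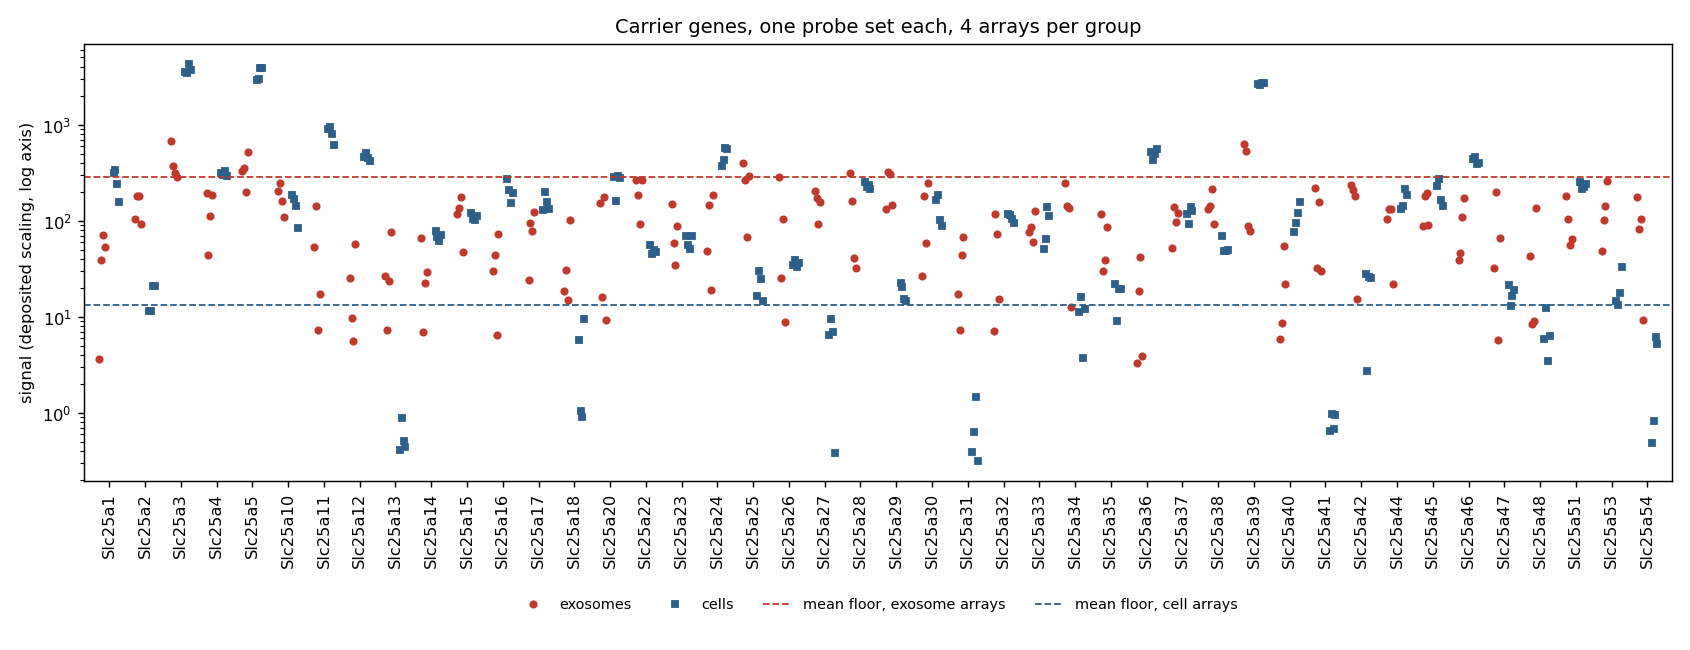
Signals of the 44 carrier genes (x axis), drawn as in the plot of the import genes (log y axis, circles for exosome arrays left of squares for cell arrays, dashed lines for the mean floors of 282 and 13.2). Slc25a3 and Slc25a5 have exosome signals around or above the exosome line, and Slc25a39 has 628 and 536 in batch 1 against 88.1 and 77.3 in batch 2.

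Probe sets of the same gene did not always give the same call. Of 28 genes with at least 2 tested probe sets, 4 had calls in opposite directions: Timm50, Timm29, Slc25a12 and Slc25a53. In each of these the lower call had no exosome array above the floor, and among the higher calls the Timm50 probe set alone was above it on 3 or more exosome arrays. Of the 57 probe sets called lower, 17 carried the _x_at suffix. Opposite calls and this suffix were not counted over the whole array. Neither is thus shown to be particular to the members.

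**Figure D4:**
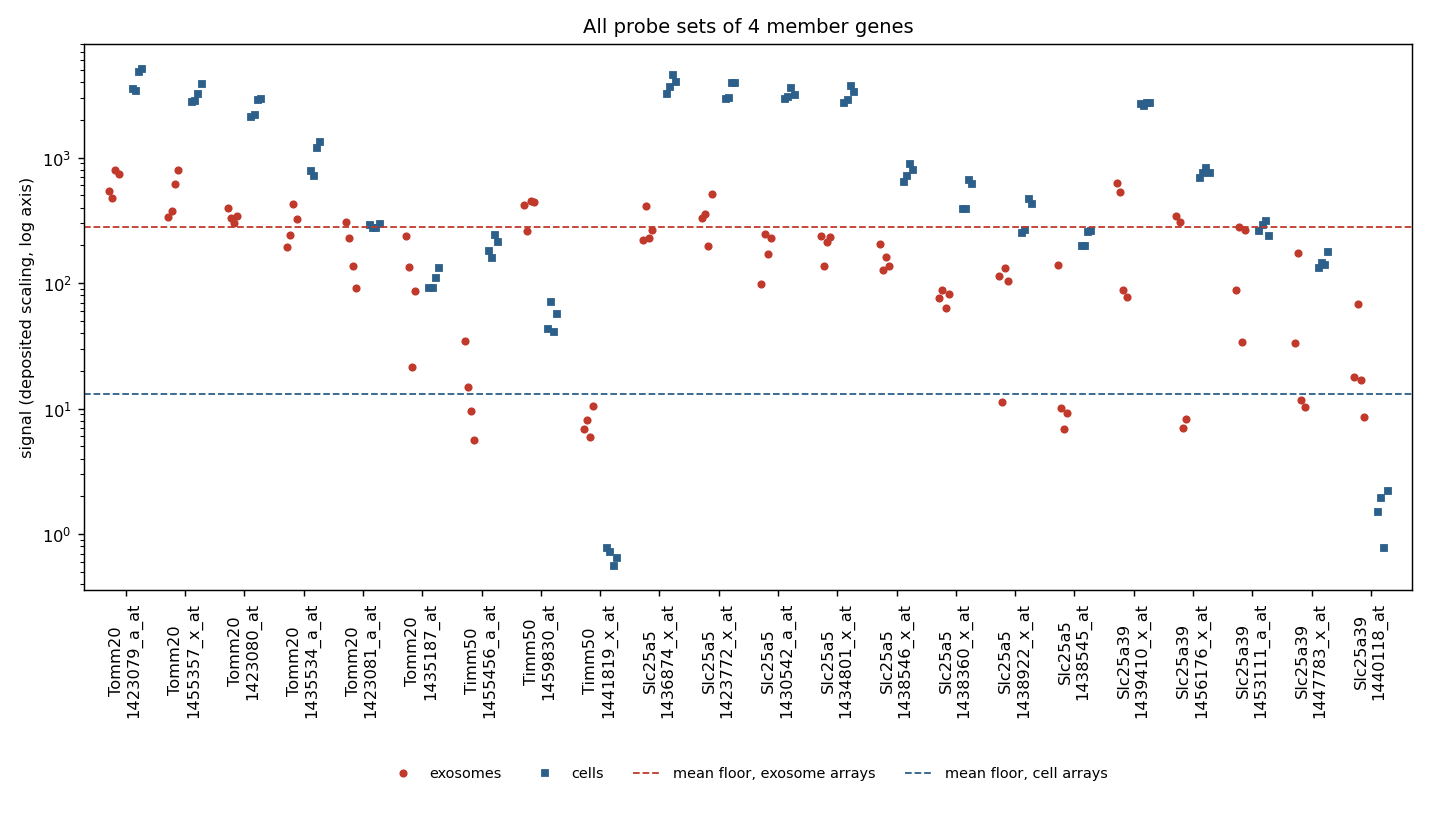
Signals of all probe sets of Tomm20, Timm50, Slc25a5 and Slc25a39 (x axis) on the 4 arrays of each group (log y axis), with circles for exosome arrays left of squares for cell arrays and dashed lines for the mean floors of 282 and 13.2. The exosome signals of Timm50 lie above the cell signals on 1459830_at and below them on 1455456_a_at, while on all 8 Slc25a5 probe sets the exosome signals lie below the cell signals.

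The directions depended on how the arrays were put on a common scale. The authors' scaling sets the mean of each array to the same value, while the hybridisation controls, which the standard Affymetrix protocol adds in fixed amounts, were 4.51 higher in exosomes on the log2 scale (18 probe sets), the poly-A controls 3.52 higher (24), and the 432 probe sets measured on all 8 arrays differed by -0.75. Scaled to the hybridisation controls, 43 of 44 import probe sets (97.7%) were lower and 0 higher, and 61 of 65 carriers (93.8%) lower and 0 higher. Over all tested probe sets 94.3% were lower and 1.25% higher, with a median of -4.72. The carriers' share of lower calls was thus just below that of all. With the poly-A controls the counts were 38 and 0 for import and 54 and 0 for carriers (79.4% and 1.44% of all, median -3.84). Quantile normalisation gave 22 lower (50%) and 3 higher import probe sets and 37 (56.9%) and 1 carrier probe sets, against 47.7% and 7.33% of all (median -1.51). Scaled to the 432 probe sets, the counts were 19 and 5 for import and 22 and 12 for carriers (25.6% and 25%, median 0.01). With the background median subtracted they were 30 and 2 for import and 41 and 2 for carriers (54.6% and 7.85%, median -2.36).

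Some calls held under all 6 of these scalings. Of 15 named import genes, 7 were lower under each one: Timm10b, Timm13, Timm17a, Timm8b, Tomm40, Tomm7 and Tomm70a. Of 18 named carriers, 7 were lower under each one: Slc25a1, Slc25a3, Slc25a5, Slc25a11, Slc25a12, Slc25a24 and Slc25a36. Each of these genes was named among the largest falls on the authors' scaling, a choice that favours lower calls under the others. On the probe sets that stood for these genes, only Slc25a3 and Slc25a5 exceeded the floor on any exosome array. For the rest a lower call sets exosome background against cell signal. With the hybridisation and poly-A controls, 94.3% and 79.4% of all tested probe sets were lower. The share of all tested probe sets lower under all 6 was not counted. No named gene was called higher under all 6. Of the 9 named genes called higher on the authors' scaling, 0 were called higher with the hybridisation or poly-A controls, which shift every probe set of an array alike, and all 9 lay above the median of all tested probe sets under each scaling. After quantile normalisation and after background subtraction, Timm50 and Slc25a29 were still called higher, and 7 were not: Slc25a22, Slc25a25, Slc25a35, Slc25a38, Slc25a42, Slc25a53 and Tomm40l. Of 21 named genes called lower, the calls of Tomm20, Timm23, Slc25a4 and Slc25a39 were lost after quantile normalisation, and those of Timm10, Timm23, Timm29, Slc25a4 and Slc25a20 with the 432 probe sets. Relative to the median of all tested probe sets, Timm13 lay between -4.53 and -3.62 and Slc25a36 between -4.34 and -3.64 over the 6 scalings. Timm23 lay between -0.68 and 2.65, the Timm50 probe set 1459830_at between 3.16 and 4.94, Slc25a25 between 3.63 and 4.43, and Slc25a29 between 3.49 and 5.14. Timm23 was thus above the median under some scalings and below it under others, while 1459830_at was above it under each. Tomm20 (1423079_a_at) lay between -2.48 and 0.86, Slc25a3 between -2.97 and -0.07, and Slc25a5 (1423772_x_at) between -3.06 and -0.30.

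**Figure D5:**
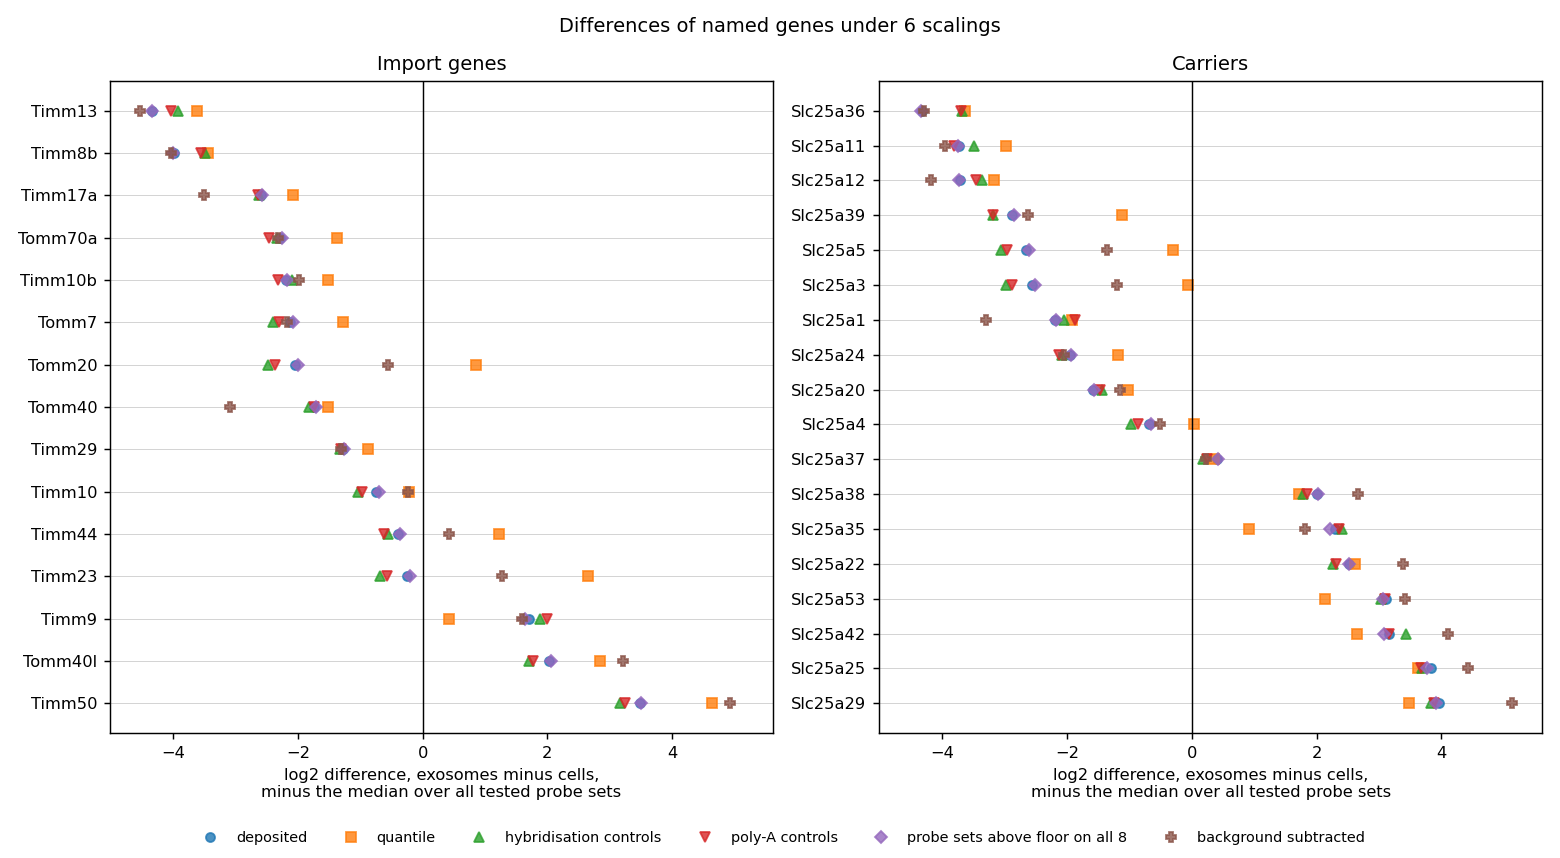
Log2 difference, exosomes minus cells, minus the median over all tested probe sets (x axis), of the named import genes and carriers (y axis) under each of the 6 scalings. The position of Timm23 ranges from -0.68 to 2.65 across the scalings, and that of Timm13 from -4.53 to -3.62.

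The difference between exosomes and cells varied between hybridisation batches for 5 of the 109 tested member probe sets (4.59%), against 3.69% of all tested probe sets, in a fit with an interaction of group and batch that was chosen after the data were seen. The share of the members was thus near that of all. All 5 had a more negative difference in batch 2, and they belonged to Slc25a39 (2 probe sets), Timm10b, Tomm70a and Timm44. The directions of the calls over all tested probe sets were not counted. Each of the 5 carries the _x_at or _s_at suffix, and the other tested probe sets of these genes were not called in this fit. Within batch 1 alone 22 import probe sets were lower and 2 higher, and 24 carriers lower and 6 higher, in a background of 30.2% lower and 13.5% higher over all tested probe sets. These were 50% and 4.55% of the import and 36.9% and 9.23% of the carrier probe sets tested. Within batch 2 alone 24 import probe sets were lower and 4 higher (54.5% and 9.09%), and 25 carriers lower and 6 higher (38.5% and 9.23%), against 31.5% lower and 19.7% higher of all. Across the 142 member probe sets, signals correlated with Pearson's r of 0.41 to 0.54 between exosome arrays, 0.97 to 0.99 between cell arrays and 0.18 to 0.38 between the groups, a description over probe sets that share arrays.

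Genes of the same pathway outside the Timm, Tomm and Slc25a names were followed through a list of 39 that includes matrix chaperones, processing peptidases, sorting proteins, porins and sideroflexins. Of these, 35 had a probe set, 30 were tested, 20 were lower, 1 was higher and 9 were not called, with a median of -2.03. Each gene was read from 1 probe set. Of the 35, 29 exceeded every cell floor, while 2 exceeded 3 or more exosome floors. The filter thus favoured genes that were high in cells. With no matching background by gene, these counts do not show a fall particular to this list. The higher gene was Agk, an acylglycerol kinase that is also a subunit of the TIM22 complex, with 425, 360, 393 and 279 in exosomes against 105, 101, 85.2 and 69.6 in cells (1.97, SE 0.32, limma adjusted p = 0.000425). It was above the floor on 3 exosome arrays. Sfxn1, a serine carrier of the inner membrane, was the other gene above the floor on 3 exosome arrays, with 411, 321, 335 and 318 in exosomes against 669, 804, 1164 and 1046 in cells (-1.38, limma adjusted p = 0.00179). Bounds of falls included those of Hspe1, a co-chaperonin of the matrix, at least 4.80-fold lower (-3.96), the porin Vdac3, at least 3.95-fold lower (-2.61), and Immp1l, a subunit of the inner membrane peptidase, at least 2.97-fold lower (-5.55). The porin Vdac2 was lower as well (-4.27), with 276, 153, 72.8 and 48.2 in exosomes and 1736, 1768, 2938 and 2670 in cells.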

How the data were processed

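Total RNA of exosomes and of MC/9 cells was measured on 8 Affymetrix Mouse430_2 arrays, from 5 µg per array per the labels' protocols. The authors deposited 1 intensity value per probe set and array, on a linear scale, from GCOS (version not given), per the submitters' processing notes. Their 2% trimmed mean is 100 on each array. How probes were summarised and background was treated is not given in the sources used here. Arrays fall into 2 hybridisation batches by the file headers.

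Of 45101 probe sets, 64 are controls, 34945 have 1 gene symbol in the platform annotation, 932 several and 9160 none. All 142 members matched the RefSeq gene table by gene ID, and 0 symbols changed. A further 4 probe sets that name a member beside another gene were left out. The members, lists, tests and motifs were chosen with earlier results of these data known.

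The floor, filter and test are given in the text, and floors are per array. Tests used limma 3.58.1 (lmFit and eBayes with a trend) in R 4.3.3 over all 20219 tested probe sets, with pseudocount 4. Differences on this scale understate changes of dim probe sets. The number of arrays limits the precision. The rule for names took genes above the floor on at least 3 exosome arrays, genes called higher, the 8 largest called falls among import genes and among carriers (above the floor on all 4 cell arrays, no overlap), genes with opposite probe sets and 15 genes in any case. One probe set stood for a gene, that with the highest mean log2 value over all 8 arrays. Probe sets beyond it, and genes of each role not in the rule, were named after their values were seen. Alternatives covered scaling, background, pseudocount, floor, filter, batch, replicate block and leaving out each array. The labels do not say whether equal replicate numbers share a culture. Deviations of equal-numbered arrays correlated at -0.02, -0.03, -0.07 and 0.01. Of the 20219 tested probe sets, 19030 passed through the cell arrays alone, so these values cannot decide whether the arrays are paired.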

Additional observations from a re-analysis of the deposited data

Results flagged for a closer look

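Among 66 groups of 4 arrays examined (33 named genes in exosomes and in cells), 7 had a highest or lowest array far from the other 3, where chance gives about 1 in 20. In exosomes, replicate 2 of Timm50 (1459830_at) stood low at 260.0, against 419, 447 and 441, and replicate 4 of Slc25a42 stood low at 15.2, against 237, 210 and 180. In cells, replicate 4 of Tomm40 stood low at 137, against 336, 333 and 332, and replicate 2 of Slc25a20 at 162, against 286, 290 and 281. Replicate 2 of the cells also stood low for Slc25a35 (9.06) and Slc25a42 (2.70), and replicate 1 stood high for Slc25a38 (69.3). Without exosome replicate 4 the log2 difference of Slc25a42 was 3.34 (limma adjusted p = 0.00159), and without cell replicate 2 it was 1.93 (limma adjusted p = 0.0887). Without exosome replicate 2 that of Timm50 was 2.99 (limma adjusted p = 0.000107).

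The difference between exosomes and cells varied with hybridisation batch for 5 member probe sets (4.59% of those tested, against 3.69% of all tested probe sets). On the log2 scale, batch 2 minus batch 1 was -4.94 for Slc25a39 1456176_x_at (limma adjusted p = 0.00638), -2.82 for Slc25a39 1439410_x_at (limma adjusted p = 0.00939) and -3.11 for Timm10b 1436416_x_at (limma adjusted p = 0.0227). It was -3.23 for Tomm70a 1426676_s_at (limma adjusted p = 0.0397) and -3.06 for Timm44 1439371_x_at (limma adjusted p = 0.0451). What differed between the batches was not tested.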

How the results depend on the processing

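With the replicate number as a block 26 import probe sets were lower and 4 higher. Of the carriers 30 were lower, against 31 without the block, and 9 higher. The calls of all 33 named genes held, as they did with batch as a block, pseudocounts of 1 and 16, no filter and no variance trend. The deviations of equal-numbered arrays correlated at -0.02, -0.03, -0.07 and 0.01, which does not settle whether these arrays share a culture.

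Leaving out 1 array at a time gave 25 to 27 lower and 3 to 6 higher import probe sets and 26 to 31 lower and 7 to 10 higher carriers, and 4 to 5 import and 0 to 1 carrier probe sets above the floor on the exosome arrays kept. The counts of lower calls were largest under control scaling: with the hybridisation controls 43 import and 61 carrier probe sets were lower and 0 and 0 higher, and with the poly-A controls 54 carriers were lower and 0 import and 0 carrier probe sets higher. Higher carriers numbered 1 after quantile normalisation, and background subtraction left 2 higher import and 2 higher carrier probe sets. Raising each signal below the floor to it gave 17 higher import probe sets, 17 lower and 39 higher carriers, which lifts exosome values to a floor that many cell values do not reach. Without the filter 9 import and 35 carrier probe sets were higher, against 18% lower and 59% higher of all 45037 probe sets. With the floor at the 99th percentile 3 carriers were higher, and 1 import and 0 carrier probe sets were above it on at least 3 exosome arrays. On all 4 exosome arrays 0 carriers, and on at least 1 array 16 import and 13 carrier probe sets, were above the usual floor. Within batch 1 alone 2 import probe sets were higher. For the replicate block, the fits without an array, raised signals and the 99th percentile floor, no share over all tested probe sets was counted. The counts under these settings therefore show no difference between the members and the array.

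Differences that turned with the hybridisation controls were those of Slc25a22 (-2.45), Slc25a25 (-1.03), Slc25a29 (-0.89), Slc25a35 (-2.31), Slc25a38 (-2.94), Slc25a42 (-1.29), Slc25a53 (-1.68), Timm50 (-1.56), Timm9 (-2.83) and Tomm40l (-3.01). With the poly-A controls they were those of Slc25a22 (-1.54), Slc25a25 (-0.17), Slc25a35 (-1.48), Slc25a38 (-2.0), Slc25a42 (-0.69), Slc25a53 (-0.75), Timm50 (-0.60), Timm9 (-1.85) and Tomm40l (-2.07). Slc25a35 also turned after quantile normalisation (-0.60) and background subtraction (-0.55), as did Timm9 (-1.09 and -0.77), Timm23 turned after quantile normalisation (1.13), and the uncalled Slc25a37 with the 432 probe sets (0.43) and Timm44 within batch 1 (0.40) turned too. With signals under the floor set to it, Slc25a1 (0.16), Slc25a20 (0.17), Slc25a37 (1.22), Timm29 (0.16) and Tomm40 (0.069) turned. With the probe set of the highest mean over the cell arrays, Slc25a53 (-1.51), Timm50 (-3.52) and Timm9 (-1.71) turned.

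The call was lost, with its direction kept, for 9 named genes after quantile normalisation, for 6 within batch 1 and for 11 within batch 2, where fewer arrays were compared. The causes of the other changes were not tested. Depth limits the exosome side: most members lay below a floor of 246 to 336 there, so that a fitted fall shows a signal at background, and its size beyond the bound has no measured meaning.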

Other observations

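The 4 probe sets that name a member beside another gene gave these signals. That of Tomm5 and Gm8069 had 489, 161, 323 and 144 in exosomes and 876, 833, 860 and 869 in cells. The pair for Tomm6 and Prickle4 had 33.2, 158, 9.23 and 19.5 in exosomes with 605, 520, 802 and 836 in cells, and 315, 130, 232 and 136 in exosomes with 1571, 1435, 2493 and 2566 in cells. That of Slc25a37 and Gm16867 had 182, 174, 81.9 and 141 in exosomes and 0.374, 0.931, 7.79 and 0.992 in cells. Which of the paired genes gave these signals was not tested.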
